A study of Mus musculus with 4 samples.

Results

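Innate, Fc, lectin and paired immune receptors were examined in eosinophils sorted from the bone marrow and the pleural cavity of wild-type (WT) mice that carried LLC cells, which derive from a Lewis lung carcinoma of the mouse, in the pleural space. The genes were taken from the deposited comparison of the tissues by symbol (Tlr with a digit, Clec, Nlrp, Nod1, Nod2, Mefv, Siglec, Fcgr, Fcer, Lilr, Pira, Pirb, Pilr, Sirp, Trem and Klr), and 50 of its 5807 listed genes met this rule. Each tissue was sequenced as 2 libraries, labelled WT_LLC_BM and WT_LLC_MPE. The labels thus name LLC for both tissues, whereas the study's text in one place calls the marrow cells naïve, and the labels were followed here, so whether the marrow donors carried LLC cells rests on the labels and methods. The labels give neither strain nor age. The study's methods name C57 BL/6 and BALB/C wild-type mice without saying which these were, and give all mice an age of 6 to 8 weeks. A figure legend of the study gives day 2 for the sort, and nothing states how many mice went into a library. The gates differed: CD45, SiglecF and high side scatter defined bone marrow eosinophils after enrichment on F4/80, whereas pleural cavity eosinophils were in addition CD11b+ and F4/80+, with CD11c+ and high Gr1 cells left out. SiglecF protein was thus used to choose the cells in both tissues, and differences between the gates and between the tissues cannot be told apart.

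What could be measured is the authors' mean reads per gene in each tissue, which are estimated counts and not scaled for depth. Single libraries have no value in the table, which leaves the spread between replicates unknown and allows no test, and every difference below is a description of these 4 libraries without a replicate check. To compare the tissues, the mean reads of a gene were divided by the summed mean reads of all listed genes in that tissue, 15947438 in the pleural cavity against 11762543 in the marrow, and ratios are given as log2 of pleural cavity over bone marrow. These sums cover the listed genes and are not library totals, so the depth per library is unknown. Means of 3 reads or fewer were raised to 3 for counting, which makes the ratio a lower bound on the size of the difference. The table lists genes that the authors called different between the tissues, so a receptor outside it has no value here, and being on the list is no result about the receptors. Their call required more than 2-fold under the study's own scaling, and the study counted many more genes lower than higher. On the scaling used here, 2468 of the 5807 lay above 0, 3339 below 0 and 1942 within 2-fold. Where 0 lies thus depends on the scaling, and so does a place within 2-fold. In the GENCODE M21 annotation 121 protein-coding genes carry a symbol that meets the rule, and 48 of them were listed by Ensembl identifier. The other 2 of the 50, Clec7a and Pira1, are classed there as polymorphic pseudogenes.

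These receptors let innate cells read their surroundings. Toll-like and NOD-like receptors detect microbial and danger molecules, Fc receptors bind antibodies, and C-type lectins and Siglecs bind sugars. Many of the others form pairs of closely related genes, in which the activating receptor signals through an adaptor with an ITAM motif (Fcer1g or Tyrobp) to the kinase Syk, and the inhibitory receptor carries ITIM motifs that recruit the phosphatase Ptpn6. Eosinophils are known for their inhibitory Siglecs and for the paired immunoglobulin-like receptors PIR-A and PIR-B.

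By number of genes lower values prevailed in pleural cavity eosinophils, whereas the PIR-A genes Lilra6, Pira2 and Pira1, which carry many of the reads, were more than 2-fold higher there. Of the 50 receptor genes, 8 were more than 2-fold higher in pleural cavity eosinophils, against 16.0% of all listed genes, and 31 were more than 2-fold lower, against 50.5%. The other 11 lay within 2-fold. The median log2 ratio was -2.16 over the receptors and -1.02 over all listed genes. The 8 were Lilra6, Pira2, Pira1, Klrg1, Klra2, Siglecf, Clec4d and Pilrb2. Few reads lay behind many of the lower genes: 13 receptors had under 100 mean reads in both tissues, and all 13 were more than 2-fold lower, as were 95.8% of the 1263 listed genes with as few reads. A gene of few reads enters such a list only with a large difference, so these 13 lend no weight to a direction. Among the 37 with at least 100 mean reads in one tissue, 8 were higher and 18 lower by more than 2-fold, with a median log2 ratio of -0.98. Of all listed genes with as many reads 19.3% were higher and 38.0% lower, with a median of 0.33. Of the 23 receptors with at least 1000 mean reads in one tissue, 6 were higher and 8 lower, against 20.1% and 21.8% of all listed genes of that depth. Summed over all 50 genes, receptors took 1.10% of the listed reads in the pleural cavity against 0.956% in the marrow. The sum was thus close to even while its makeup differed.

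**Figure D1:**
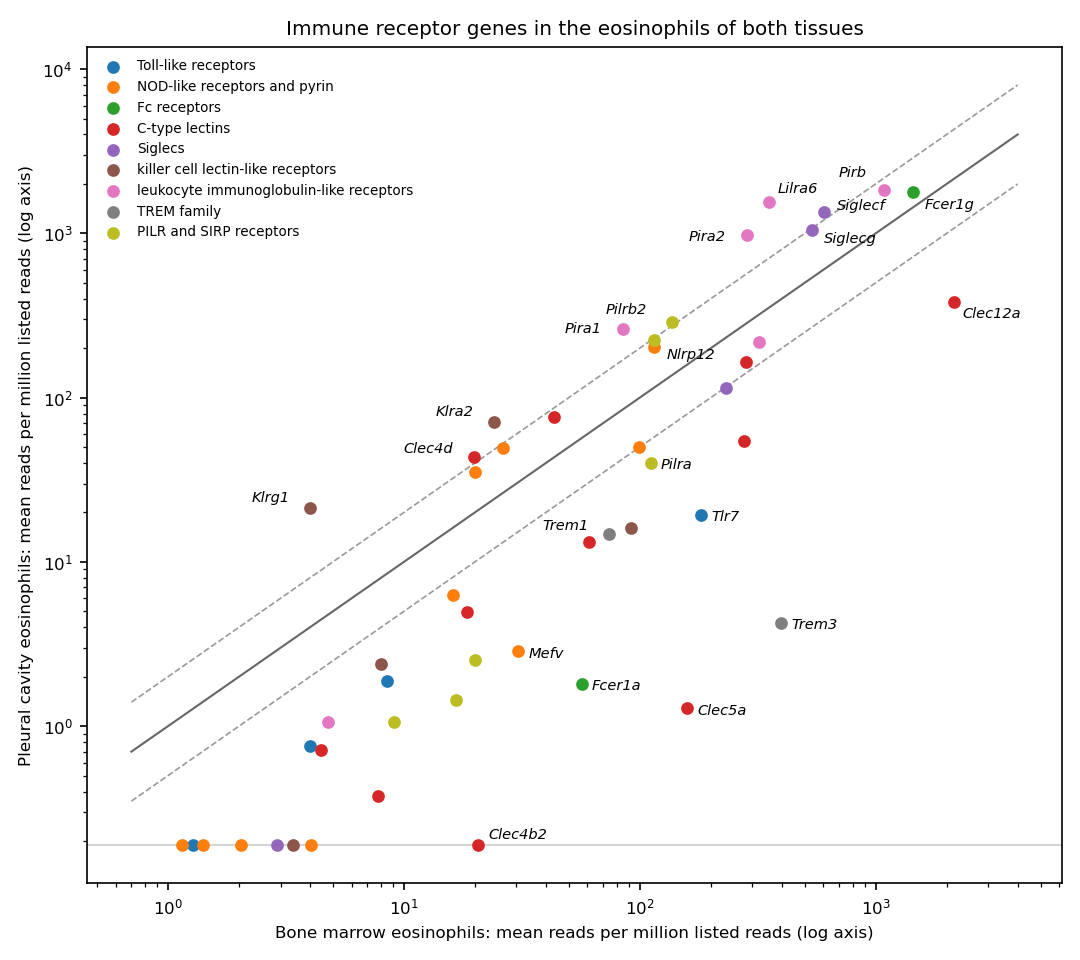
Mean reads of the 50 receptor genes per 1000000 listed reads in bone marrow (x axis, log scale) and pleural cavity eosinophils (y axis, log scale), each point a gene coloured by family. The solid line marks equal values, the dashed lines 2-fold differences and the grey line 3 mean reads, to which lower pleural cavity values are raised; 8 points lie above the upper dashed line and 31 below the lower one.

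Marker genes of other cells differed alongside the receptors, and in bulk samples fewer cells of a type and less RNA per cell cannot be told apart. All 14 neutrophil and precursor markers were listed and more than 2-fold lower in pleural cavity eosinophils, with 117202 summed reads per 1000000 listed reads in the marrow against 2298 in the pleural cavity. These markers moved in the direction of the 31 receptors more than 2-fold lower and against the 8 more than 2-fold higher. The study's methods report a high purity of the sorted cells. The part of neutrophils or their precursors in the receptor reads was not tested. The monocyte and macrophage list was split, with 3 of 8 listed genes of 14 higher, 4 lower and sums of 9883 reads per 1000000 in the marrow against 5023 in the pleural cavity. Marco, Csf1r and C1qb were higher, at log2 ratios of 3.04, 1.94 and 1.77. Ly6c2, Ms4a7, Mrc1 and Lyz2 were lower, at -5.62, -4.24, -1.27 and -1.24. The part of monocytes and macrophages in the receptor reads was not tested. Of 8 dendritic cell markers 3 were listed, with Bst2 and Ccr7 higher and Siglech lower, and of 8 B cell markers 2 were, with Ms4a1 higher and Vpreb1 lower. All 3 listed of 8 erythroid markers were lower, with 40.1 reads per 1000000 in the marrow against 0.188 in the pleural cavity. Among 10 eosinophil markers 9 were listed. Siglecf, Ccr3 and Gata1 were higher in pleural cavity eosinophils, and the other 6, granule and Ear genes with Alox15, were lower, Prg2 with 1482 mean reads in the pleural cavity and 555404 in the marrow. Together the 9 summed to 92504 reads per 1000000 listed reads in the marrow against 8107 in the pleural cavity.

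The paired immunoglobulin-like receptors on chromosome 7 belong to the family whose summed reads had the highest ratio of pleural cavity over bone marrow. PIR-A receptors activate through Fcer1g, and PIR-B, encoded by Pirb, is their inhibitory partner, and both bind MHC class I molecules. The 6 listed genes of the leukocyte immunoglobulin-like receptor family summed to 4864 reads per 1000000 listed reads in the pleural cavity against 2137 in the marrow, a log2 ratio of 1.19. The 4 neighbours between positions 3711409 and 3915503 of chromosome 7 (GRCm38, minus strand) carried nearly all of it. Pirb had 29343 mean reads in the pleural cavity against 12791 in the marrow, a log2 ratio of 0.76, within 2-fold. Lilra6, also named Pira3, had 24885 and 4146 mean reads, a log2 ratio of 2.15. Pira2 had 15646 and 3359 mean reads, a log2 ratio of 1.78. Pira1 had 263 and 85.0 reads per 1000000 listed reads, a log2 ratio of 1.63. By these estimated reads the activating genes of this block differed more between the tissues than the inhibitory one.

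Reads of these genes were hard to keep apart. Of all stretches of 100 bases, the read length, in the longest transcript of Pira1, 79.2% also occur in a transcript of another gene, and 86.5% do for Pira2. The share was 24.6% for Pirb and 13.5% for Lilra6. RSEM divides reads between similar genes and their mean reads were fractional, so the split among Pira1, Pira2, Lilra6 and Pirb is uncertain. The gene sharing most stretches was Gm15922 for Pira2, at 74.0%, and Gm14548 for Pirb, at 15.2%. Neither was among the receptors taken by symbol. Whether their reads entered the values of Pira2 and Pirb was not tested. The contrast between the activating genes and Pirb carries the same uncertainty. Of the remaining listed genes of the family, Lilr4b (gp49A), with 3493 and 3783 mean reads, had a log2 ratio of -0.55, and Lilra5, an activating receptor, had 17 and 56 mean reads, a log2 ratio of -2.16.

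The similarity reaches into the start regions. RefSeq windows of 300 bases (GRCm38.p6), from 250 bases before to 50 after the start of the gene, are shown for the inhibitory Pirb (chr7:3720333-3720632, minus strand) and the activating Pira1 (chr7:3739868-3740167, minus strand), because they share 97.3% of their bases while the log2 ratios of the genes were 0.76 and 1.63. Capitals mark GAGGAA, the core of sites for the myeloid factor PU.1, the letters GATA with A or T before and A or G after them, and TTGCNNAA of C/EBP sites, each on either strand with overlapping copies counted. Both windows hold 3 copies of the PU.1 letters and no GATA or C/EBP letters, as do those of Pira2 and Lilra6.
Pirb: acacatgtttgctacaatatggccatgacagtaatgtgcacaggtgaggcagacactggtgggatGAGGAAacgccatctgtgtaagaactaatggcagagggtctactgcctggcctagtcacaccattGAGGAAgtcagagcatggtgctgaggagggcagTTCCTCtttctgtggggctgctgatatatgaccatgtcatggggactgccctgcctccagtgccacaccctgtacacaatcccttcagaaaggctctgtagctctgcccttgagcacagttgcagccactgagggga
Pira1: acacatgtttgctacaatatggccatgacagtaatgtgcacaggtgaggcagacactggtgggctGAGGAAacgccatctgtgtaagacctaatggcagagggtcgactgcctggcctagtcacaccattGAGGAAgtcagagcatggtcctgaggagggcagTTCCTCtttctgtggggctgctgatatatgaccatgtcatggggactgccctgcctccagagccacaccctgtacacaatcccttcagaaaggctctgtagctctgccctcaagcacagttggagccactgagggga

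PILR receptors, a second pair system, on chromosome 5, were split between the tissues. Pilra encodes the inhibitory receptor and Pilrb1 and Pilrb2 encode activating ones that signal through Tyrobp. Pilra had 642 mean reads in the pleural cavity against 1308 in the marrow, a log2 ratio of -1.47. Pilrb1 had 3590.9 and 1353 mean reads, a log2 ratio of 0.97, and Pilrb2 had 4582 and 1615, a log2 ratio of 1.07, which was 0.88 and within 2-fold when the 20 genes of most reads were left out of the scaling. So the inhibitory gene was more than 2-fold lower, while the ratios of both activating genes lay above 0 and close to the 2-fold line, Pilrb1 just within it. Little of their transcripts is shared, since 0.887% of the stretches of 100 bases of Pilra, 4.63% of Pilrb1 and 3.34% of Pilrb2 occur in another gene, but their mean reads were fractional. The start windows of Pilra (chr5:137836229-137836528) and Pilrb2 (chr5:137871709-137872008), both on the minus strand, are shown because their genes went in opposite directions although 81.3% of the bases align as identical. Both hold 2 copies of the GATA letters and 1 of the C/EBP letters, with the same capitals as above. Their RefSeq starts lie 3 bases (Pilra) and 57 bases (Pilrb2) from the GENCODE starts, so the windows are out of step. The PU.1 letters of the Pilra window lie ahead of the bases with which the Pilrb2 window begins. They are therefore no difference seen between the genes, and the share of aligned bases is also affected by this offset.
Pilra: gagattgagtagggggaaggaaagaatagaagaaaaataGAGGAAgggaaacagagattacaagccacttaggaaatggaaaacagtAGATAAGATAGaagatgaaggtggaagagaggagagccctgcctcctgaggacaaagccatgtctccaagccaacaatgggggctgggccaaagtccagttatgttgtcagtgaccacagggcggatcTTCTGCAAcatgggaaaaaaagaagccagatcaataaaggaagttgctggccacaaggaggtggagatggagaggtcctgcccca
Pilrb2: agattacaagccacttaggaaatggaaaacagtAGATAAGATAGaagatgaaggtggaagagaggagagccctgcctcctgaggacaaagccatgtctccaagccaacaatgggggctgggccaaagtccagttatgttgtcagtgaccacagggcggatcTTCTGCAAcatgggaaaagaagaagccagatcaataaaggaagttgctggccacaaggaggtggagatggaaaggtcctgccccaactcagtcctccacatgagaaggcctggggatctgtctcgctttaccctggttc

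Activating SIRP receptors went the other way. Sirpb1a, Sirpb1b and Sirpb1c, which lie together on chromosome 3 and signal through Tyrobp, had 107, 196 and 235 mean reads in the marrow against 17.0, 23.1 and 40.4 in the pleural cavity. Their log2 ratios were -3.09, -3.52 and -2.98. Since 14.4% to 37.0% of their stretches of 100 bases are shared, chiefly among themselves, the values are best read together.

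Grouped by signal, with the groups drawn after the values were seen, activating receptors showed no common direction. Of 19 activating genes, the adaptor Fcer1g included, 5 were more than 2-fold higher and 11 lower, and their reads summed to 5270.1 per 1000000 listed reads in the pleural cavity against 3282 in the marrow. Of 10 inhibitory receptors 3 were higher and 5 lower, with 4914 and 5025 reads per 1000000. Of all listed genes 16.0% were higher and 50.5% lower. The remaining 21 receptors, Klrb1f, Clec4b1 and Clec4b2 among them, were put in neither group. Of these 0 were higher and 15 lower, so the counts and sums depend on the grouping. The 3 genes of the PIR block, Lilra6, Pira2 and Pira1, were among the 5 higher activating ones, with Pilrb2 and Clec4d.

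Siglecs are sialic acid-binding receptors, most of them inhibitory, and Siglecf is the mouse eosinophil marker. Siglecf, which spans 43351341 to 43359531 of chromosome 7, had 21371 mean reads in the pleural cavity against 7106 in the marrow, a log2 ratio of 1.15. Its neighbour Siglecg had 16717 and 6289 mean reads, a log2 ratio of 0.97. Siglece, further along the chromosome, was lower in pleural cavity eosinophils, with 1830 and 2729 mean reads and a log2 ratio of -1.02. Siglech, a marker of plasmacytoid dendritic cells, rested on 0.5 against 34 mean reads, a log2 ratio of -6.53 with a 95% interval from -11.9 to -4.00 that covers counting error only. Siglecf and Siglecg held most reads of the family, whose sum was 2503 per 1000000 listed reads in the pleural cavity against 1374 in the marrow. With the listed total taken without the 20 genes of most reads, or with the median ratio of genes of 1000 or more mean reads in each tissue, Siglecf lay within 2-fold, at 0.97 and 0.71. The start window of Siglecf (chr7:43351091-43351390, plus strand) is shown because this gene marks the sorted cells, and it holds 2 sets of GATA letters and 1 of PU.1.
Siglecf: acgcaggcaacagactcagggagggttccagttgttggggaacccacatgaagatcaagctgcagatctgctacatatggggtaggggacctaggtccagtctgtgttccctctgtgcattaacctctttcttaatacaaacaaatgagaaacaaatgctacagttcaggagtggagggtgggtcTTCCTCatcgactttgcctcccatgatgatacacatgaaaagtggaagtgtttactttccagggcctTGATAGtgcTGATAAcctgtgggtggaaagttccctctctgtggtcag

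**Figure D2:**
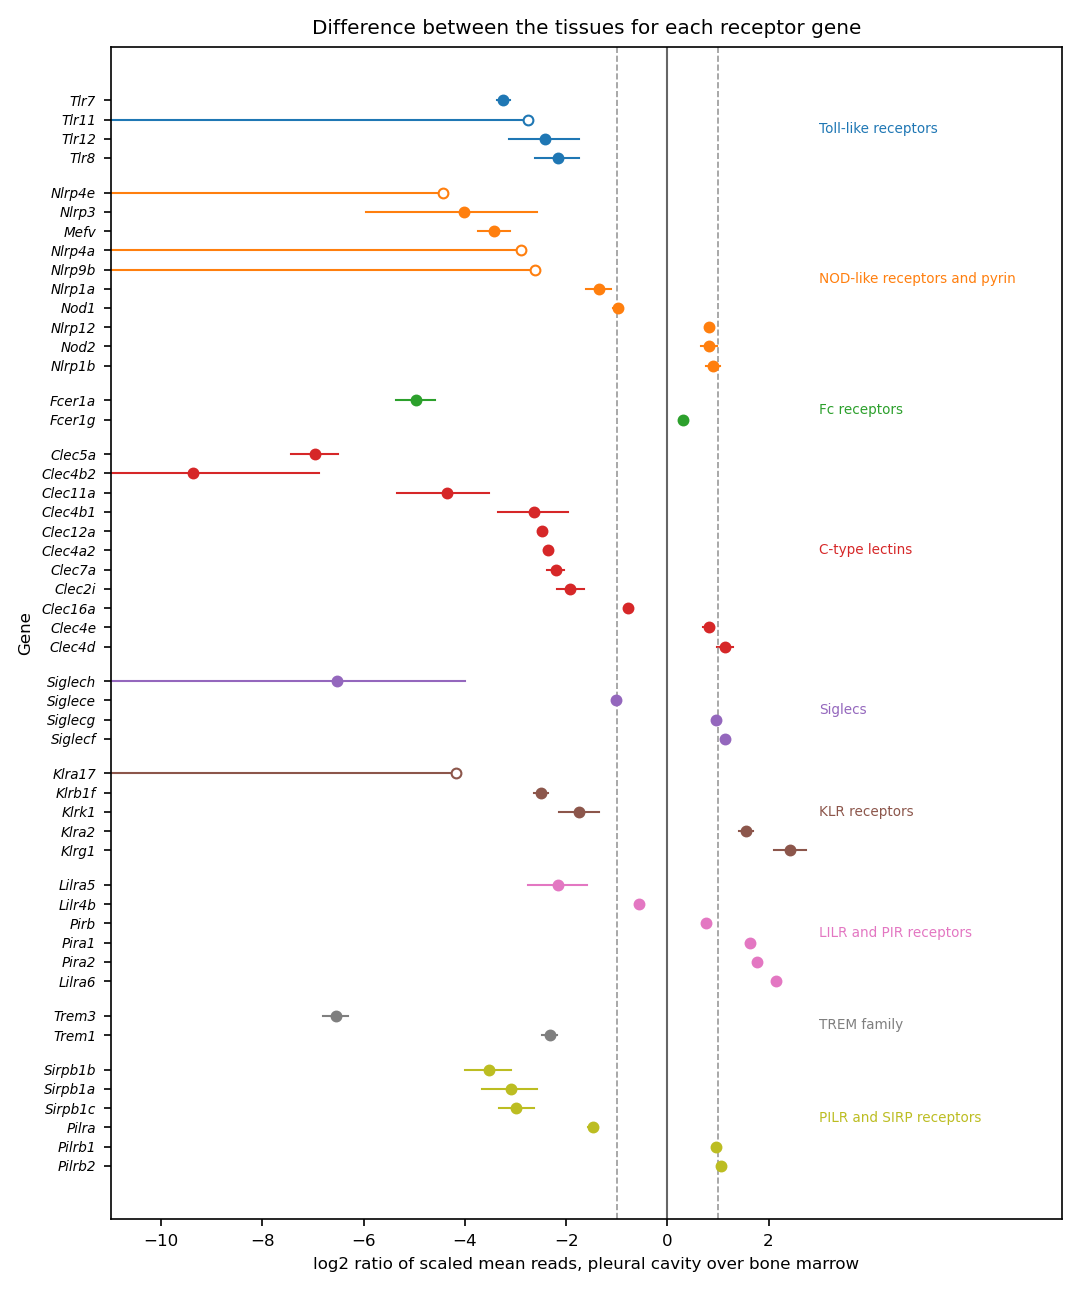
Log2 ratio of scaled mean reads, pleural cavity over bone marrow (x axis), for each of the 50 receptor genes (y axis), grouped and coloured by family. Filled points are ratios, bars are 95% exact intervals for counting error only, cut at -11, open points are bounds for the 5 genes at 0 mean reads in pleural cavity eosinophils, and dashed lines mark 2-fold; PIR-A genes and Klrg1 lie farthest to the right, and Clec4b2, Clec5a and Trem3 are among those farthest to the left.

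C-type lectins were the family with the most reads in bone marrow eosinophils. In pleural cavity eosinophils 8 of the 11 listed genes were more than 2-fold lower, against 50.5% of all listed genes. Their sum was 3040.2 reads per 1000000 listed reads in the marrow against 743 in the pleural cavity. Most of this came from Clec12a, an inhibitory receptor for uric acid crystals, with 25244 mean reads in the marrow against 6121 in the pleural cavity, a log2 ratio of -2.48. Per kilobase of transcript it ranked 2 of the 50 receptors in the marrow against 9 in the pleural cavity. Clec5a, an activating receptor of myeloid cells, had 1874 and 20.5 mean reads, a log2 ratio of -6.95. Clec4a2, inhibitory, had 3267 and 863 mean reads, a log2 ratio of -2.36. Clec7a, the beta-glucan receptor Dectin-1, had 719 and 211 mean reads, a log2 ratio of -2.21. Clec16a, a regulator of autophagy that carries a lectin name, had a log2 ratio of -0.77. The sum of the family had a log2 ratio of -2.03, and that of the 14 neutrophil and precursor markers, which are lower in the same libraries, had -5.67. That of the 9 listed eosinophil markers, 3 of them higher and 6 lower, had -3.51.

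The opposite direction was seen in Clec4d and Clec4e, which encode the activating receptors MCL and Mincle for microbial glycolipids and dead cells. Clec4d had 694 mean reads in the pleural cavity against 233 in the marrow, a log2 ratio of 1.14 that was 0.95 when the 20 genes of most reads were left out of the scaling, and Clec4e had 1219 and 510, a log2 ratio of 0.82. Both lie next to 3 lower genes of the same cluster on chromosome 6, which spans 123049962 to 123289870. Clec4b2, the nearest of these, had 243 mean reads in the marrow against 0.5 in the pleural cavity, a log2 ratio of -9.36 with a 95% interval from -14.7 to -6.88 for counting error only. Clec4b1 had 52.5 and 11.5 mean reads, a log2 ratio of -2.63. None of the stretches of 100 bases of Clec4b1, Clec4b2, Clec4d and Clec4e is shared with another gene, and 2.69% of those of Clec4a2 are. Start windows of the adjacent Clec4b2 (chr6:123172773-123173072) and Clec4d (chr6:123261857-123262156), both on the plus strand, are shown with the same capitals because these neighbours went opposite ways. The window of Clec4d holds 3 sets of PU.1 letters, and that of Clec4b2 holds 1 of PU.1 and 1 of GATA.
Clec4b2: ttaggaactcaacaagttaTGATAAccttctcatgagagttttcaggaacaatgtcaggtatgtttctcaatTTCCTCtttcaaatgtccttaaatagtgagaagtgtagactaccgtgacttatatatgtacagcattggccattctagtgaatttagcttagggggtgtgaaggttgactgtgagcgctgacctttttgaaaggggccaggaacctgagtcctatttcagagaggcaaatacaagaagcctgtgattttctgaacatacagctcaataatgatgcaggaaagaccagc
Clec4d: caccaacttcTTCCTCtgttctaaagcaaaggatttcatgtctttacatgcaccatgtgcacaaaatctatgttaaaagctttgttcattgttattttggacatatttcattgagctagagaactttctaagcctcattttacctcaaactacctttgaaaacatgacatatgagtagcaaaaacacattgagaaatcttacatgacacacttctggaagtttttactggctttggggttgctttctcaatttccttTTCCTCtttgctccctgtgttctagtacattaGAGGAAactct

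**Figure D3:**
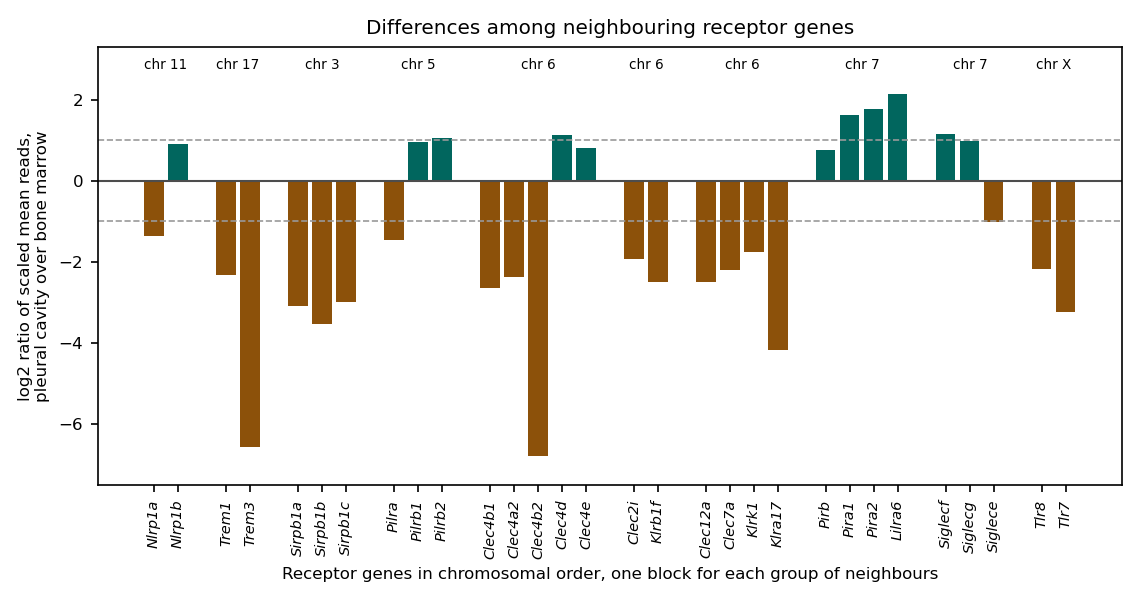
Log2 ratio of scaled mean reads, pleural cavity over bone marrow (y axis), for the 30 receptor genes that have another listed receptor within 250000 bases, in chromosomal order (x axis), with 1 block per group of neighbours. Bars are green above 0 and brown below, means of 3 reads or fewer are raised to 3, and dashed lines mark 2-fold; the blocks on chromosomes 3, 17 and X hold lower genes, and the blocks with Pilra, Clec4 and Siglec genes hold genes of both directions.

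Of the 50 receptors, 30 lay in 10 such groups of neighbours. Among these, 3 groups held both a gene more than 2-fold higher and one more than 2-fold lower. The higher gene of each, Pilrb2, Clec4d or Siglecf, came within 2-fold with the median ratio. The same held when the 20 genes of most reads were left out of the scaling. In total 15 receptors were on chromosome 6 and 14 on chromosome 7. Over the 47 receptors with a start window, 27 windows held PU.1 letters and 19 held C/EBP letters, whereas 28.3% and 10.8% of all 32851 RefSeq windows did. GATA letters stood in 17 of the 47 windows and in 29.8% of all. PU.1 letters were in 6 of 7 windows of higher genes and 16 of 29 of lower genes, and C/EBP letters in 2 of 7 and 12 of 29. Some windows of neighbouring paralogs are near copies, such as those of the PIR genes and of Pilrb1 and Pilrb2, and do not count as separate observations, and a match of letters is not a binding site.

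Killer cell lectin-like receptors were few in reads, and 2 of 5 were more than 2-fold higher, against 16.0% of all listed genes. Klrg1, an inhibitory receptor for cadherins, had 341 mean reads in the pleural cavity against 47 in the marrow, a log2 ratio of 2.42, the highest among the 50 receptors. Klra2 (Ly49b), also inhibitory, had 1131 and 284 mean reads, a log2 ratio of 1.55. In contrast, Klrb1f had 258 and 1076 mean reads, a log2 ratio of -2.50, and Klrk1, the NKG2D receptor, had 38 and 94, a log2 ratio of -1.75. Klra17 (Ly49q) was at 0 in pleural cavity eosinophils against 40 mean reads in bone marrow, at least 18.1-fold lower with 3 reads per library as the floor. Listed markers of NK and T cells were lower as well: of 12 markers 3 were listed, Nkg7, Cd3d and Ncr1, with 903 summed reads per 1000000 listed reads in the marrow against 9.97 in the pleural cavity. Nkg7 alone gave 887 of the marrow sum, at a log2 ratio of -6.98, whereas Cd3d and Ncr1 had -2.38 and -2.47. The part of NK and T cells in the reads of these receptors was not tested.

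TREM receptors, which activate myeloid cells through Tyrobp, were the family whose summed reads had the largest ratio between the tissues, though not the largest difference in reads. Trem3 had 4678 mean reads in the marrow against 67.5 in the pleural cavity, a log2 ratio of -6.55. Its neighbour Trem1, which lies 853 bases away on chromosome 17, had 874 and 236.5 mean reads, a log2 ratio of -2.32. Per kilobase of transcript, Trem3 ranked 3 of the 50 receptors in the marrow against 28 in the pleural cavity. Summed, both genes came to 472 and 19.1 reads per 1000000 listed reads, a log2 ratio of -4.63, beside the log2 ratio of -5.67 for the sum of the 14 neutrophil and precursor markers. The sum of the 9 listed eosinophil markers, 3 of them higher and 6 lower, had a log2 ratio of -3.51.

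Of the Fc receptors only the IgE receptor genes Fcer1a and Fcer1g were listed, 2 of 8 annotated genes, and none of the Fcgr genes for IgG was. Fcer1g encodes the ITAM adaptor that also serves PIR-A, and it had the highest level per kilobase of transcript among the 50 receptors in both tissues. It had 28539 mean reads in the pleural cavity against 16861 in the marrow, a log2 ratio of 0.32, which turned to -0.12 with the median ratio of genes of 1000 or more mean reads in each tissue. Fcer1a, the IgE-binding chain, had 29 and 667 mean reads, a log2 ratio of -4.96. The adaptor was thus near even where the binding chain was lower. Markers of basophils and mast cells, which also make Fcer1a, moved the same way: all 6 listed of 9 markers were more than 2-fold lower, with 1054 summed reads per 1000000 listed reads in the marrow against 23.6 in the pleural cavity. Ms4a2, which encodes the beta chain of the IgE receptor, was among them, with 809 mean reads in the marrow and 4 in the pleural cavity. The part of such cells in the Fcer1a reads was not tested.

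All 4 listed Toll-like receptors were more than 2-fold lower in pleural cavity eosinophils, against 50.5% of all listed genes. Of these, Tlr8, Tlr11 and Tlr12 had under 100 mean reads in both tissues, so they lend no weight to a direction. Tlr7, the endosomal receptor for single-stranded RNA, which spans 167304929 to 167330558 of chromosome X, had 2138 mean reads in the marrow against 307 in the pleural cavity, a log2 ratio of -3.24. Its neighbour Tlr8 had 99.5 and 30 mean reads, a log2 ratio of -2.17. Tlr12 had 47 and 12 mean reads, and Tlr11 had 15 and 0, at least 6.78-fold lower with 3 reads per library as the floor. Tlr11 and Tlr12 detect profilin. The 4 are from 12 annotated genes, and the others, Tlr4 among them, have no value here.

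NOD-like receptors form inflammasomes or sense peptidoglycan, and the 10 listed genes of this group, pyrin (Mefv) included, were split. Nlrp12 had 3247 mean reads in the pleural cavity against 1356 in the marrow, a log2 ratio of 0.82. Nod2 had 563 and 235 mean reads, a log2 ratio of 0.82, whereas its relative Nod1 had 800.0 and 1164, a log2 ratio of -0.98. Nlrp1b had 786 and 310.0 mean reads, a log2 ratio of 0.90, and its neighbour and paralog Nlrp1a had 101 and 190, a log2 ratio of -1.35. Mefv had 45.5 and 359 mean reads, a log2 ratio of -3.42. Nlrp3 rested on 2 against 24 mean reads, a log2 ratio of -4.02 with a 95% interval from -5.96 to -2.57 for counting error only. Nlrp4a, Nlrp4e and Nlrp9b, known from germ cells and early embryos, were at 0 in pleural cavity eosinophils with 13.5 to 47.5 mean reads in bone marrow. No gene of this group was more than 2-fold higher and 6 were lower, against 16.0% and 50.5% of all listed genes. Of the 10 genes 4, all among the lower ones, had under 100 mean reads in both tissues. The summed reads of the group were 348 per 1000000 listed reads in the pleural cavity against 316 in the marrow.

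**Figure D4:**
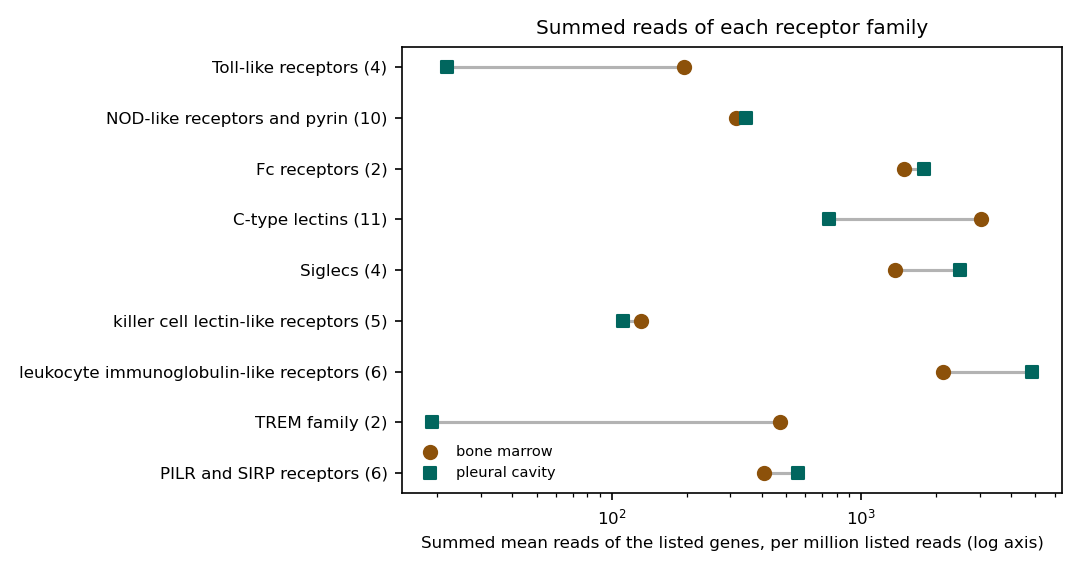
Summed mean reads of the listed genes of each receptor family (y axis, number of genes in brackets) per 1000000 listed reads (x axis, log scale), with circles for bone marrow and squares for pleural cavity eosinophils. The LILR and PIR family goes from 2137 to 4864 and the TREM family from 472 to 19.1.

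By summed reads, 5 of the 9 families were higher in pleural cavity eosinophils, and 3 with the median ratio. By genes past 2-fold, 8 families had more lower than higher ones, while 50.5% of all listed genes were lower and 16.0% higher. With at least 100 mean reads in one tissue, 6 families had more lower genes and 2 had more higher ones. The leading genes changed as well. In bone marrow eosinophils Clec12a alone took 22.4% of the receptor reads, and Clec12a, Fcer1g and Pirb together took 48.8%. In pleural cavity eosinophils Pirb, Fcer1g and Lilra6 led with 47.4%, and with Siglecf, Siglecg and Pira2 they held 78.1%.

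Genes that carry the signals of these receptors went both ways. Of 71 genes on a list of adaptors, kinases, phosphatases, inflammasome parts and ligands, 40 were listed, and 12 were more than 2-fold higher and 10 lower, with a median log2 ratio of 0.63. S100a8 and S100a9, both among the 10 lower, are also on the list of neutrophil and precursor markers. All 40 had at least 100 mean reads in one tissue, and of all listed genes of that depth 19.3% were higher and 38.0% lower, with a median of 0.33. Tyrobp, the adaptor of TREM, PILR and SIRP receptors, had 65339 mean reads in the pleural cavity against 26495 in the marrow, a log2 ratio of 0.86. Syk, the kinase that ITAMs recruit, had a log2 ratio of 1.04, and Plcg2, a phospholipase of the same path, had 1.19. Ptpn6, the phosphatase that ITIMs recruit, had 35509 and 12762 mean reads, a log2 ratio of 1.04. Both the kinase and the phosphatase lay close to the 2-fold line, and with the median ratio 5 of the 40 genes were more than 2-fold higher and 11 lower. Card9 and Vav1, which also act below ITAM receptors, were lower, at -1.08 and -1.52.

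Below the Toll-like receptors, the 7 listed of 14 adaptor and kinase genes had log2 ratios from 0.29 to 1.60. Those of Irak3, Irak4 and Tollip, at 0.29, 0.39 and 0.34, turn negative with the shift of -0.44 that the median ratio brings. Myd88, the common adaptor, had 4287 and 2040.0 mean reads, a log2 ratio of 0.63, and Ticam2, a bridge to the TRIF adaptor, had 1.60. Cd14, a co-receptor for lipopolysaccharide, and Cd180, a relative of Tlr4, had log2 ratios of 1.51 and 2.76, while Lbp, which delivers lipopolysaccharide, had -4.78. Of 14 inflammasome and NOD signalling genes 8 were listed, with Txnip and Nek7 more than 2-fold higher at 1.48 and 1.06, and Nlrc4, Il18 and Il1b lower, Nlrc4 and Il18 at -2.54 and -1.59 and Il1b with 549 mean reads in the pleural cavity and 811 in the marrow. H2-D1 and H2-K1, MHC class I genes whose products bind PIR receptors, had log2 ratios of 1.36 and 0.94, with fractional reads.

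**Figure D5:**
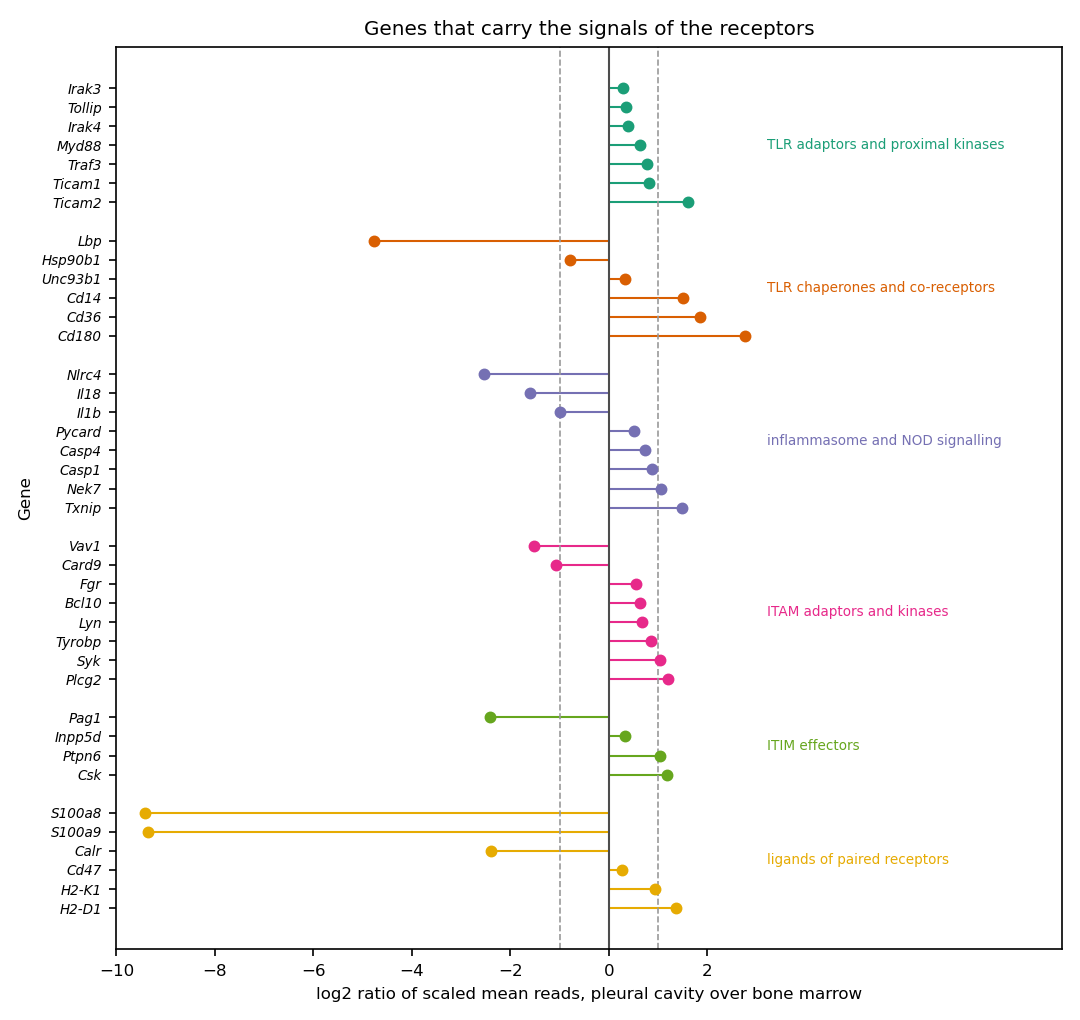
Log2 ratio of scaled mean reads, pleural cavity over bone marrow (x axis), of 39 of the 40 listed genes of the signalling list (y axis), coloured by step of the pathway, with dashed lines at 2-fold. All 7 Toll-like receptor adaptors and kinases lie right of 0 on the main scaling, though Irak3, Irak4 and Tollip do not with the median ratio. S100a8 and S100a9, which are also on the list of neutrophil and precursor markers, lie farthest to the left.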

How the data were processed

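Eosinophils from bone marrow and pleural cavity were sequenced, with 2 libraries per tissue grouped by their labels. Per the labels and methods, the authors used SOAPnuke for trimming, HISAT2 2.1.0 and Bowtie2 2.2.5 for mapping on GRCm38, and RSEM 1.2.8 for estimated counts. The deposited expected counts are means over the libraries of a tissue, not scaled for depth. The deposited log2 fold changes, p-values and q-values are the authors' own DESeq2 comparison and were not used. The number of unused columns with values per sample was 0.

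Mean reads were divided by the sum of the listed genes of the tissue. A fold threshold of 2 and a floor of 3 reads per library were used, and values count as fractional when they are no multiple of 0.5 within a tolerance of 0.01. Intervals are exact binomial (Clopper-Pearson, 95%) on mean reads times the 2 libraries, for counting error only, since reads without molecular identifiers are not independent molecules. No test was possible. Every listed receptor could be named. Values were planned for those of at least 100 mean reads in one tissue and the largest difference of each family in either direction, and other receptors with values, Tlr8, Tlr11, Tlr12, Nlrp3, Siglech, Klrk1, Klra17, Lilra5 and Clec4b1 among them, were chosen after their values were seen. Members and lists were chosen with earlier results of these data known. Coordinates and transcripts came from GENCODE M21 (GRCm38), where all 50 receptors and 5656 of 5807 listed genes matched, and start windows from RefSeq, where 47 receptors matched by NCBI identifier. Where a gene had several windows, the one nearest the GENCODE start was used. In the signalling list 1 gene counted in the totals is not reported here by name or in the plot. The ratio step was tested on simulated data. Alternatives covered scaling, fold threshold, low reads, fractional reads and the floor. Scripts ran under Python 3.11.15 with scipy 1.17.1, pandas 2.3.3, numpy 2.4.6 and matplotlib 3.10.9.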

Additional observations from a re-analysis of the deposited data

How the results depend on the processing

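No paired analysis was possible because the deposited means carry no replicate number, and for the same reason no library could be left out. Unscaled mean reads shift all log2 ratios by 0.44, the listed total without the 20 genes of most reads by -0.18 and the median ratio of genes of 1000 or more mean reads in each tissue by -0.44. No receptor past 2-fold changed direction under these scalings, and Fcer1g was the only receptor to change sign.

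With unscaled reads 15 receptors were more than 2-fold higher, Pirb, Siglecg, Pilrb1, Clec4e, Nlrp12, Nlrp1b and Nod2 in addition, while Siglece and Nlrp1a came within 2-fold, 2 families had more higher than lower genes, against 1, and 21 signalling genes were higher. Without the 20 genes of most reads 5 receptors were higher. With the median ratio 5 receptors and 5 signalling genes were higher, and 3 families had higher summed reads, against 5. The 5 receptors higher under all 4 scalings were Klra2, Klrg1, Lilra6, Pira1 and Pira2, and 29 were lower under all 4. A fold threshold of 1.5 gave 15 higher receptors and 21 higher signalling genes. A threshold of 4 gave 2 higher receptors, 0 families with more higher genes, 1 signalling gene higher and 6 lower. With at least 100 mean reads in one tissue 18 receptors were lower and 2 families had more higher genes. Without the 20 receptors of fractional reads 4 receptors were higher and 0 families had more higher genes. The counts with at least 10 mean reads or with a floor of 1 read were the main ones, and a floor of 10 reads gave 30 lower receptors. Depth limits the genes at or near 0 in pleural cavity eosinophils most.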
